A study of Mus musculus with 40 samples.

Results

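Krt7, Krt19, Epcam, Sox9, Cd24a and Prom1 are genes of cholangiocytes, the epithelial cells that line bile ducts, and of the ductular reaction. The 6 genes were set by name, matched to their Ensembl identifiers, and read in the unstranded counts of all 8 dose groups. They are 6 of the 55359 genes in the count tables, and all 6 passed the filter on low counts that left 15373 genes for testing. Male C57BL/6 mice received TCDD, a tetrachlorinated dibenzo-p-dioxin, in sesame oil or the oil alone as vehicle, by oral gavage on a 4-day interval over 28 days. Mice were 30 days old at the start and 58 days old at collection. Each of the 8 groups held 5 mice: vehicle, and TCDD at 30 and 10, 3 and 1, 0.3 and 0.1, and 0.03 µg/kg. The labels give no genotype beyond the strain and no difference between groups other than dose, and each library was made from total RNA of a frozen piece of liver from 1 mouse.

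TCDD is a persistent contaminant that binds the aryl hydrocarbon receptor, a ligand-activated transcription factor. Cholangiocytes are a small minority of liver cells and carry keratins and surface glycoproteins that hepatocytes lack or hold at low levels. In many forms of chronic liver injury, small ducts and duct-like cells spread out from the portal tracts, which is called a ductular reaction. Notch signalling and the Hippo effectors YAP and TAZ are known to act in biliary cell fate, and cytokines and growth factors from neighbouring cells are known to drive duct expansion.

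Libraries held from 15.5 M up to 21.0 M counts in genes (median 17.5 M). Albumin (Alb), the main secreted product of hepatocytes, lay between 74063 and 92459 CPM (counts per 1000000 TMM-scaled counts in genes) in the vehicle livers. Replicates differed beyond sampling noise in each of 80 pairs, with chi-square values per degree of freedom of 10.2 or more. Library sizes were scaled by the TMM method (trimmed mean of M-values), and a gene was called at a Benjamini-Hochberg adjusted p under 0.05 in edgeR together with a change from vehicle of 1.5-fold or more. Of all genes tested, 21.8% were called at 10 µg/kg and 42.1% at 30 µg/kg. The calls at 30 µg/kg comprised 3567 higher genes of 6476. When libraries were scaled to total counts alone they comprised 6402 higher genes of 7961, and the median over all genes moved from 0.03 to 0.52 on the log2 scale. At 10 µg/kg the higher calls were 2097 of 3347, against 2980 of 3736 under that scaling, and the median moved from 0.01 to 0.22. A mouse of the 30 µg/kg group, replicate 2, stood apart for 4 of the 6 genes. Named fold changes and slopes that moved by over 1.5 times or lost a call without it are given both ways. Values within run 1, the sample titles numbered up to 27, are excepted. Replicate numbers follow accession order and only name a mouse.

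The first question was which of the 6 genes differed from vehicle, and from which dose. None was called from 0.03 to 3 µg/kg, doses at which 0.0195%, 0.0976%, 0.468%, 2.78% and 6.75% of all genes tested were called. Prom1 alone was called at 10 µg/kg, and it was higher, as were 13.6% of all genes. All 6 were called at 30 µg/kg: Prom1, Epcam, Krt7, Cd24a and Krt19 were higher and Sox9 was lower. The call of Krt19 was lost without replicate 2 of the 30 µg/kg group, and that of Sox9 was lost when libraries were scaled to total counts alone. Among all genes tested, 23.2% were called higher and 18.9% lower at 30 µg/kg. In bulk liver RNA, a change in the number of cells of a type and a change in RNA per cell cannot be told apart.

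**Figure D1:**
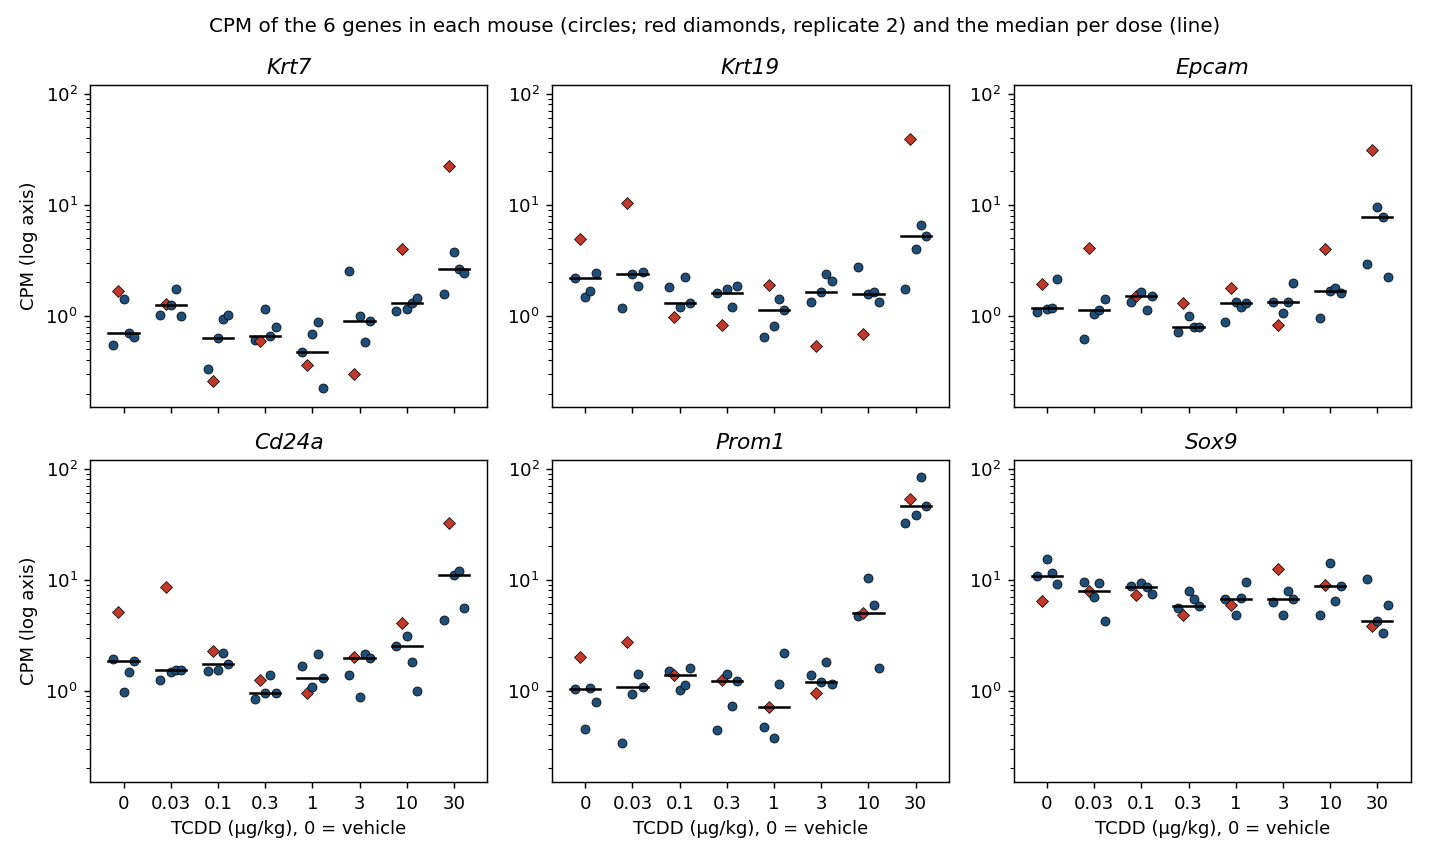
CPM of the 6 genes (log axis) in each of the 40 mice by TCDD dose in µg/kg, with circles for mice, red diamonds for the mouse numbered replicate 2 in each group and a line at the median of the 5 mice. Prom1 lies above every vehicle mouse in 4 of 5 mice at 10 µg/kg and in 5 of 5 at 30 µg/kg, and the diamond at 30 µg/kg is far above the other mice for Krt7, Krt19, Epcam and Cd24a.

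Krt7 (ENSMUSG00000023039) and Krt19 (ENSMUSG00000020911) encode type II and type I keratins of simple epithelia and are standard stains for bile ducts. In vehicle livers, Krt7 measured 0.547, 1.68, 1.42, 0.700 and 0.645 CPM. Values at 10 µg/kg were 1.10, 3.97, 1.15, 1.30 and 1.44 CPM, and those at 30 µg/kg 1.57, 22.2, 3.78, 2.62 and 2.45 CPM. Replicate 2 was the highest mouse at both doses, and at 30 µg/kg only replicate 1 fell inside the vehicle range. The log2 fold change was 0.85 (SE 0.56, adjusted p = 0.265 by edgeR) at 10 µg/kg, which did not pass, and 2.7 (SE 0.56, adjusted p = 8.95e-05), or 6.51-fold, at 30 µg/kg. Without replicate 2 it was 1.36 (adjusted p = 0.0113 by edgeR), and the mean of the other 4 mice was 2.60 ± 0.905 CPM (SD), against 0.999 ± 0.516 CPM in vehicle (SD, n = 5).

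Krt19 measured 2.19, 4.91, 1.49, 1.68 and 2.44 CPM in vehicle livers. The 10 µg/kg mice measured 2.78, 0.692, 1.56, 1.65 and 1.33 CPM, inside or below the vehicle range in every mouse. The values at 30 µg/kg were 1.76, 38.9, 4.00, 6.63 and 5.27 CPM. Replicate 2 held 68.7% of the CPM summed over the group, 3 mice lay above all vehicle mice, and replicates 1 and 3 lay among them. The log2 fold change was -0.66 (SE 0.59, adjusted p = 0.420 by edgeR) at 10 µg/kg and 2.15 (SE 0.56, adjusted p = 0.00138), or 4.43-fold, at 30 µg/kg. The call at 30 µg/kg rested on replicate 2: without that mouse the log2 fold change was 0.77 (adjusted p = 0.163 by edgeR), and the other 4 mice averaged 4.42 ± 2.07 CPM (SD), 1.74 times the vehicle mean.

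Epcam (ENSMUSG00000045394) encodes an adhesion molecule of epithelial cell membranes that is present on bile ducts and absent from mature hepatocytes. It measured 1.09, 1.93, 1.17, 1.19 and 2.15 CPM in vehicle livers and 0.960, 4.01, 1.67, 1.77 and 1.61 CPM at 10 µg/kg. The 30 µg/kg mice measured 2.92, 30.9, 9.65, 7.78 and 2.23 CPM. All 5 mice lay above the highest vehicle mouse, with replicate 5 only just above it and replicate 2 far above the others. The log2 fold change at 30 µg/kg was 2.83 (SE 0.49, adjusted p = 5.02e-06 by edgeR), or 7.12-fold, and 1.89 without replicate 2. The value at 10 µg/kg was 0.42 (SE 0.49, adjusted p = 0.550 by edgeR).

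Cd24a (ENSMUSG00000047139) encodes a small glycoprotein anchored to the outer cell membrane, found on duct cells and also on many leukocytes. In vehicle livers it measured 1.94, 5.10, 0.971, 1.47 and 1.86 CPM, and at 10 µg/kg 2.54, 4.11, 3.08, 1.83 and 1.00 CPM, within the vehicle range. The 5 mice at 30 µg/kg measured 4.35, 32.7, 11.0, 11.8 and 5.52 CPM. Replicate 1 lay under the highest vehicle mouse and the other 4 above it. The log2 fold change at 30 µg/kg was 2.52 (SE 0.48, adjusted p = 2.98e-05 by edgeR), or 5.73-fold, and 1.82 without replicate 2. The value at 10 µg/kg was 0.15 (SE 0.49, adjusted p = 0.851 by edgeR).

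Prom1 (ENSMUSG00000029086) encodes prominin-1, also called CD133, a membrane glycoprotein of cell protrusions that is used to isolate progenitor cells of several tissues. It measured 1.04, 1.99, 0.453, 1.05 and 0.788 CPM in vehicle livers. Mice at 10 µg/kg measured 4.66, 5.03, 10.3, 5.95 and 1.61 CPM, and at 30 µg/kg 32.4, 53.3, 38.4, 84.7 and 45.7 CPM. All mice at 30 µg/kg lay above all mice at 10 µg/kg, and of the latter only replicate 5 fell inside the vehicle range. Replicate 4, and not replicate 2, was the highest mouse at 30 µg/kg. The log2 fold change was 2.36 (SE 0.42, adjusted p = 3.19e-05 by edgeR) at 10 µg/kg, or 5.12-fold, and 5.56 (SE 0.44, adjusted p = 2.27e-13), or 47.2-fold, at 30 µg/kg. Of all genes tested, 0.813% had a log2 fold change at 30 µg/kg at or above that of Prom1. Over all leave-one-out fits of vehicle and 30 µg/kg mice it ranged from 5.28 to 5.91.

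Sox9 (ENSMUSG00000000567) encodes a transcription factor of the biliary lineage that is also present in periportal hepatocytes. It measured 10.7, 6.41, 15.2, 11.5 and 9.17 CPM in vehicle livers and 4.80, 8.90, 14.2, 6.36 and 8.72 CPM at 10 µg/kg. Mice at 30 µg/kg measured 10.2, 3.83, 4.23, 3.29 and 5.94 CPM. All 5 mice lay under the vehicle mean of 10.6 ± 3.23 CPM (SD, n = 5), and 4 of them under the lowest vehicle mouse. The log2 fold change at 30 µg/kg was -0.95 (SE 0.28, adjusted p = 0.00392 by edgeR), and at 10 µg/kg -0.30 (SE 0.28, adjusted p = 0.436). Scaled to total counts alone, the value at 30 µg/kg was -0.48 (adjusted p = 0.141 by edgeR), below the median of all genes under that scaling and no longer called.

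**Figure D2:**
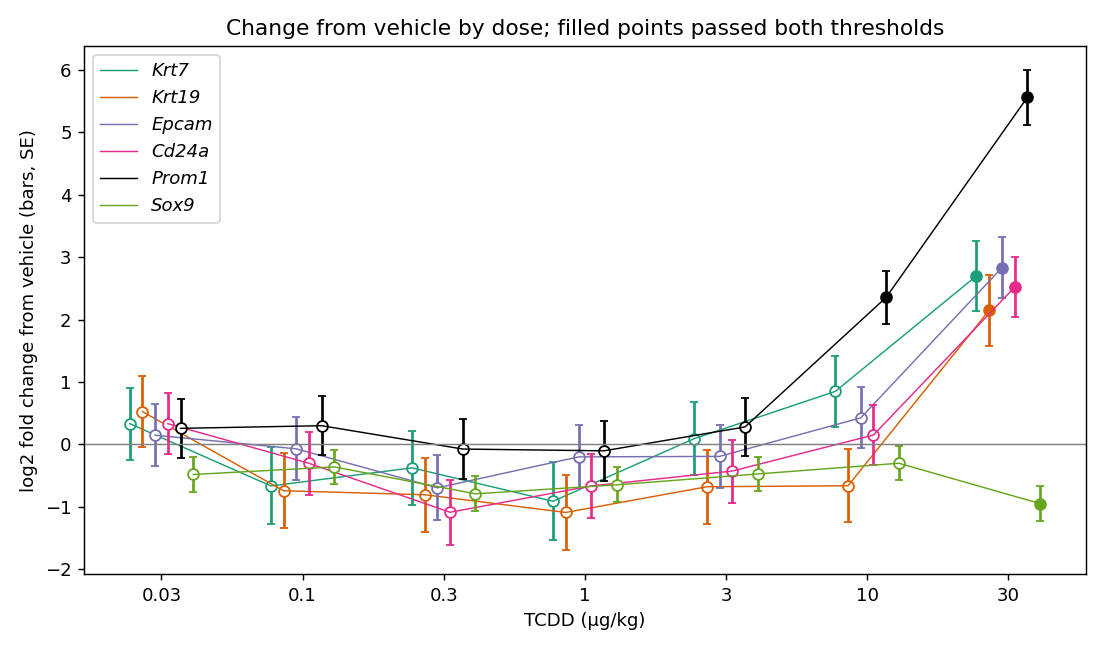
Log2 fold change from vehicle of the 6 genes by TCDD dose in µg/kg, with SE bars and filled points where both thresholds were passed. Points from 0.03 to 3 µg/kg are all open, Prom1 is filled at 10 and 30 µg/kg with values of 2.36 and 5.56, and Sox9 is the only gene below 0 at 30 µg/kg, at -0.95.

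The 5 genes that were higher at 30 µg/kg are shown with the sequence before their start where the RefSeq promoter table (GRCm38.p6) holds it. Of the 6 genes, 3 matched: Krt7, Epcam and Prom1. The 250 bases before each start are given 5′ to 3′ on the gene's strand, and capitals mark the letters of a motif. They lie at chr15:101412153-101412402 (+) for Krt7, chr17:87635729-87635978 (+) for Epcam and chr5:44101737-44101986 (-) for Prom1.
Krt7: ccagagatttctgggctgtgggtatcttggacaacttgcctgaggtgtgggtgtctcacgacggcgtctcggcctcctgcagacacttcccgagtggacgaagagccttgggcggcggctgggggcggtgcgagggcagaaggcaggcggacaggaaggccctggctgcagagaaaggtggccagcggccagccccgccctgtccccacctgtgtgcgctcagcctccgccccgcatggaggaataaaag
Epcam: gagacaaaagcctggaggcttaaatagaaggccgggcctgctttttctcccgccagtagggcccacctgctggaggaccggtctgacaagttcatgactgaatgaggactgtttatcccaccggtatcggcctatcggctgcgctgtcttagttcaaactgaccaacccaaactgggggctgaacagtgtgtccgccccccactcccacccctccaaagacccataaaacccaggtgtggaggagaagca
Prom1: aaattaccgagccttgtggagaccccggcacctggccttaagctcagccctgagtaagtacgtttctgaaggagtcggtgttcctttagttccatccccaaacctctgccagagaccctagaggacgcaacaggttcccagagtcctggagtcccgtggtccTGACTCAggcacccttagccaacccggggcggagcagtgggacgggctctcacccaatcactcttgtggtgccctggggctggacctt

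Both strands were searched for the dioxin response element core GCGTG, the AP-1 motif TGACTCA, the TEAD motif GGAATG and the RBPJ motif GTGGGAA. These motifs were held by 28.2%, 4.46%, 12.6% and 5.42% of the 32851 promoter windows in the table. The only match was 1 AP-1 motif before Prom1, starting 88 bases before the start. A window of another Prom1 start, at chr5:44094769-44095018 (-), held none of the 4 motifs.

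The lower doses gave no call among the 6 genes. No gene was called at 0.03, 0.1, 0.3, 1 or 3 µg/kg by edgeR, and none by DESeq2 or by limma on the deposited log2 values. The number with an unadjusted p under 0.05 was 0 at 0.03, 0.1 and 3 µg/kg, 2 (Sox9 and Cd24a, both with values below vehicle) at 0.3 µg/kg and 1 (Sox9) at 1 µg/kg. The lowest adjusted p by edgeR over these doses was 0.235. All 6 log2 fold changes at 0.3 µg/kg were below 0, from -1.09 to -0.08, and so were all 6 at 1 µg/kg, from -1.09 to -0.10. The share of all genes below 0 is not given here, and the median over all genes was -0.02 at 0.3 and 0 at 1 µg/kg. Without vehicle replicate 2, Prom1 lay above 0 at both doses (0.27 and 0.24), and Cd24a had -0.55 at 0.3 µg/kg. At 0.03 µg/kg, replicate 2 held 10.5 CPM of Krt19 and 8.56 CPM of Cd24a, while the other 4 mice measured at most 2.49 CPM for both.

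Between the 2 highest doses, 5 of the 6 genes differed, against 10.6% of all genes called higher at 30 than at 10 µg/kg. The log2 difference was 3.20 for Prom1, 2.81 for Krt19, 2.41 for Epcam, 2.37 for Cd24a and 1.85 for Krt7, and the largest of their edgeR adjusted p-values was 0.00609. Without replicate 2 of the 30 µg/kg group, that of Krt7 was 0.52 (adjusted p = 0.426 by edgeR) and no longer passed, and those of Krt19, Epcam and Cd24a were 1.44, 1.47 and 1.68 and still did. Sox9 differed by -0.65 (SE 0.28, adjusted p = 0.0728 by edgeR) and did not pass. A linear slope over the 8 ordered dose steps was upward (adjusted p under 0.05) for the same 5 genes, against 31.5% of all genes. It was 0.79 log2 units per step for Prom1, 0.34 for Krt7 and Epcam, 0.28 for Cd24a and 0.20 for Krt19. Without replicate 2 of the 30 µg/kg group the slopes of Krt7, Epcam and Cd24a were 0.17, 0.20 and 0.17, and that of Krt19 was -0.0013 and no longer passed. The slope of Sox9 was -0.07 (adjusted p = 0.0591 by edgeR).

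Ordered by mean CPM, the ranges of neighbouring dose groups overlapped throughout for Krt7, Krt19, Epcam, Sox9 and Cd24a. For Prom1 they were apart only between 0.1 and 10 µg/kg and between 10 and 30 µg/kg. The group at 0.1 µg/kg was the highest of the lower 6 by mean alone. The lowest mouse at 10 µg/kg (1.61 CPM) lay under the highest at 0.03 (2.73 CPM), 1 (2.20 CPM) and 3 µg/kg (1.81 CPM), and under the highest vehicle mouse (1.99 CPM). The 30 µg/kg group had the highest mean of the 8 for 5 genes, and the lowest for Sox9. Every 30 µg/kg mouse lay above every vehicle mouse for Epcam and Prom1, and 19.7% of all genes tested showed such a separation.

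Per length, as CPM per kb of annotated exons, Sox9 was the most abundant of the 6 transcripts in vehicle livers, at 2.56 ± 0.781 (SD, n = 5). Krt19 followed at 1.37 ± 0.744, Cd24a at 0.879 ± 0.631, Epcam at 0.686 ± 0.225, Prom1 at 0.148 ± 0.0796 and Krt7 at 0.142 ± 0.0733 CPM per kb. At 30 µg/kg the order was Prom1 at 7.09 ± 2.85, Krt19 at 6.09 ± 8.36, Cd24a at 5.07 ± 4.43, Epcam at 4.87 ± 5.34, Sox9 at 1.33 ± 0.682 and Krt7 at 0.926 ± 1.25 CPM per kb. Neighbours in the vehicle order lay apart by more than either SD only between Sox9 and Krt19 and between Epcam and Prom1, and at 30 µg/kg every distance between neighbours was smaller than the larger of their SDs. Counts of Krt7 ranged from 9 to 27 per vehicle library and those of Prom1 from 7 to 32, so that counting error alone is sizeable in both.

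Whether the 6 genes changed by unequal amounts at 30 µg/kg was tested on the log2 ratio of each pair within a mouse, by a 2-sided exact permutation test of 5 mice against 5, with p-values adjusted over the 15 pairs. The smallest p that this design allows is 0.00794, and it was reached by all 5 pairs that hold Prom1 (adjusted p = 0.0238, exact permutation test). The ratio of Prom1 rose against every other gene, by 3.17 log2 units against Cd24a, the closest, and by 6.48 against Sox9. The pairs of Sox9 with Krt7, Epcam and Cd24a also passed (adjusted p = 0.0298, exact permutation test), so that 8 of 15 pairs changed. The pair of Sox9 and Krt19 did not pass (adjusted p = 0.0833, exact permutation test), with a difference of 2.40 log2 units. The number of pairs that passed was 5 when vehicle replicate 1, 3, 4 or 5 was left out. Among Krt7, Krt19, Epcam and Cd24a no pair passed. The ratio of Krt19 to Cd24a was 0.24 ± 0.23 (SD, n = 5) in vehicle and -0.67 ± 0.73 log2 units at 30 µg/kg, with an adjusted p of 0.0794 by the exact permutation test, and Epcam and Cd24a lay closest, with a difference of -0.14 log2 units.

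Individual mice of the 30 µg/kg group differed widely. Replicate 2 was the highest mouse for Krt7, Krt19, Epcam and Cd24a, at 8.77, 8.38, 5.78 and 3.96 times the median of the other 4. Replicate 1 was the lowest mouse for Krt7, Krt19, Cd24a and Prom1 and the highest for Sox9. Of the 19 tested genes in a list of other biliary genes, 11 were highest in replicate 2, against 18.3% of all genes tested. In lists described below, the same mouse was highest for 5 of 8 progenitor and 8 of 17 Hippo and YAP genes. It was highest for 1 of 14 Notch genes and 2 of 12 signals. Of the other biliary genes, Tspan8, a tetraspanin of epithelia, measured 26.0 CPM in that mouse and 2.41 to 13.9 CPM in the other 4. Cldn4, a tight junction claudin that did not pass the count filter, measured 11.0 CPM there and 0.0926 to 2.06 CPM in the others.

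**Figure D3:**
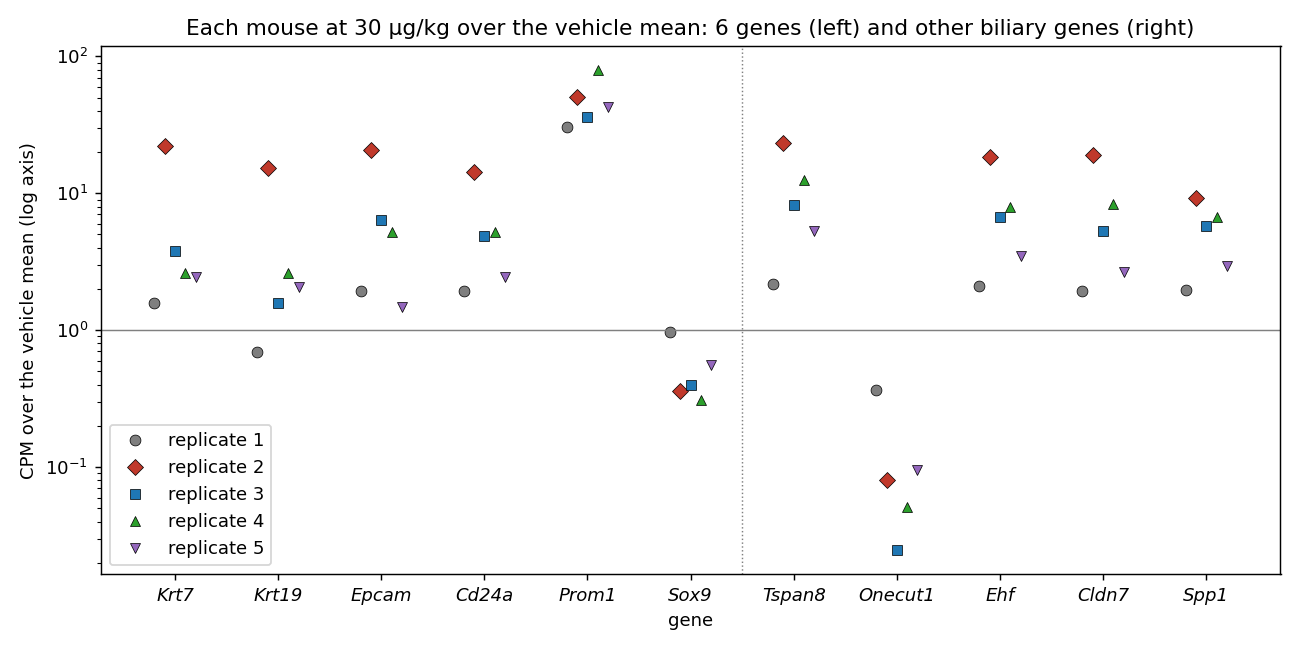
CPM of each mouse at 30 µg/kg divided by the vehicle mean (log axis) for the 6 genes on the left and, on the right, the 5 other biliary genes with the largest changes, with 1 symbol for each of the 5 mice and a line at 1. Replicate 2 is highest for Krt7, Krt19, Epcam, Cd24a, Tspan8, Ehf, Cldn7 and Spp1, and replicate 1 is the lowest of the 5 for 4 of the 6 genes on the left.

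Sample titles are numbered in a single series, in which the order of doses starts again from vehicle after number 27. Titles up to that number are called run 1 here and later ones run 2. The labels name no such runs and do not say why the order starts again. Within run 1, with 3 vehicle and 2 treated mice at 30 µg/kg, the log2 fold change was 5.18 for Prom1, 3.59 for Epcam, 3.29 for Krt7, 2.82 for Krt19, 2.78 for Cd24a and -0.64 for Sox9. Within run 2, with 2 vehicle and 3 treated mice, it was 5.90, 1.94, 2.09, 1.33, 2.47 and -1.23 for the same genes in that order. The treated mice of run 1 were replicates 1 and 2 at 30 µg/kg, so run 1 gives no value free of replicate 2, and Krt19 measured 1.76 and 38.9 CPM in them. Prom1, Epcam, Krt7, Krt19 and Cd24a passed in both runs, and Sox9 passed in run 2 (adjusted p = 0.00526 by edgeR) and not in run 1 (adjusted p = 0.280). The difference between the runs was not tested.

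Other genes of the biliary epithelium were next compared. Of 24 listed, 19 were tested, and at 30 µg/kg 9 were higher, 2 lower and 8 did not pass, where 23.2% of all genes were higher and 18.9% lower. Scaled to total counts alone, 14 were higher and 2 lower, with a median log2 fold change of 1.43. Over all genes that scaling gave a median of 0.52 and 6402 higher of 15373. Under TMM their median log2 fold change was 0.92, beside 0.03 over all genes. The gene at that median was the keratin Krt8, with a mean of 535 CPM at 30 µg/kg. Which cells held the RNA of the listed genes was not tested. The dose of 10 µg/kg gave 4 higher and none lower, with a median of 0.28. At that dose 13.6% of all genes were higher and 8.13% lower. Tspan8 (3.37, SE 0.53), Ehf, an ETS transcription factor of epithelia (2.95, SE 0.60), Cldn7, a claudin (2.89, SE 0.70), and Spp1, the secreted protein osteopontin (2.41, SE 0.26), rose on the log2 scale at 30 µg/kg. Their largest edgeR adjusted p was 0.000614. Without replicate 2 of the 30 µg/kg group the values of Cldn7 and Ehf were 2.16 and 2.32 and still passed, and without vehicle replicate 2 that of Cldn7 was 3.73. Spp1 increased from 21.7 to 33.4 CPM in vehicle livers to 51.1 to 237 CPM. Onecut1, a transcription factor of hepatocyte and biliary development, fell by 3.05 log2 units (SE 0.77), from a mean of 6.17 to 0.766 CPM. Without replicate 1 of the 30 µg/kg group, which held 2.27 CPM against 0.153 to 0.590 CPM in the other 4 mice, the log2 fold change of Onecut1 was -3.99. The claudin Cldn3 fell from a mean of 116 to 38.4 CPM (log2 SE 0.18). Aqp1, a water channel of duct cells and endothelium, was called from 3 µg/kg (1.03) and reached 1.82 at 30 µg/kg. Among the untested genes, Sctr and Ggt1 did not exceed 2 counts per vehicle library, under the floor of 3 counts, Cldn4 is given above, and Cftr measured at most 0.597 CPM in any vehicle and 30 µg/kg mouse.

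Notch genes were described in the same way, with 14 of 15 tested. The 30 µg/kg comparison gave 6 higher, 2 lower and 6 that did not pass, with a median log2 fold change of 0.92, against 23.2% of all genes higher and 18.9% lower. Scaled to total counts alone, 9 were higher and none lower, where 6402 of all 15373 genes were higher and the median over all genes was 0.52. The receptor Notch1 was called from 0.3 µg/kg (1.06, where 0.468% of all genes were called), with 1.68 at 1, 1.53 at 3, 2.20 at 10 and 1.90 at 30 µg/kg, so that it passed at 3 doses where none of the 6 duct genes did. Its mean was 20.2 CPM in vehicle, 93.2 CPM at 10 and 75.8 CPM at 30 µg/kg. The receptors Notch3 (1.71) and Notch4 (1.07) and the target genes Hey1 (2.77), Heyl (0.96) and Hes1 (0.88) rose at 30 µg/kg. The ligands Jag1 (0.83) and Dll4 (0.95) passed at 3 µg/kg. At 10 µg/kg Dll4 passed (0.70) and Jag1 had -0.02, and neither passed at 30 µg/kg, with 0.33 for Jag1 and 0.29 for Dll4. The receptor Notch2 (-0.91) and the coactivator Maml1 (-0.88) were lower at 30 µg/kg.

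Of 17 Hippo and YAP genes, all tested, 6 were higher and 2 lower at 30 µg/kg, beside 42.1% of all genes called in either direction, with a median log2 fold change of 0.36. Scaled to total counts alone, 12 were higher and none lower. Over all genes, 6402 of 15373 were higher under that scaling, with a median of 0.52. Ccn2, a matricellular target of YAP that fibroblasts also express, rose by 3.53 log2 units (SE 0.48, adjusted p = 8.37e-08 by edgeR), from 0.518 to 3.80 CPM in vehicle livers to 4.54 to 56.7 CPM. The target Ankrd1 rose by 2.92, the LIM protein Ajuba by 1.08 and the DNA-binding partner Tead2 by 1.31. Wwtr1, which encodes TAZ, was called from 1 µg/kg (0.87), with 0.75 at 3, 1.03 at 10 and 1.41 at 30 µg/kg. Yap1 had a log2 fold change of -0.36 and did not reach the fold threshold. Tead3 (-0.91) and Amotl2 (-0.76), also a target of YAP, were lower.

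Signals known to act on duct cells moved in both directions, with 5 higher, 3 lower and 4 not passing among 12 tested of 14 listed at 30 µg/kg, and a median log2 fold change of 0.37. The calls over all genes at that dose were 23.2% higher and 18.9% lower. Scaled to total counts alone, 8 signals were higher and 3 lower, with a median of 0.86. That scaling gave 6402 higher of all 15373 genes, with a median of 0.52. The ligand Tgfb2 rose by 4.77 log2 units (SE 0.40, adjusted p = 8.32e-13 by edgeR), and the ligand Ltb by 2.21. Tnfrsf12a, the receptor for the duct mitogen TWEAK, rose by 1.64, and its ligand Tnfsf12 had -0.80 at 3 µg/kg, which passed, and 0.15 at 30 µg/kg, which did not. Lif, a cytokine of the interleukin-6 family, held 0 to 2 counts per vehicle library and 16 to 62 at 30 µg/kg, at least 8.49-fold higher against the floor of 3 counts per library. The receptors Egfr, Lifr and Met, all abundant on hepatocytes, fell by 3.69, 2.20 and 1.17 log2 units. The mean of Egfr was 536 CPM in vehicle, 170 at 10 and 41.6 at 30 µg/kg. The same 3 receptors were already lower at 10 µg/kg, where 8.13% of all genes were called lower.

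Genes of progenitor cells and of fetal liver made up the last list, with 7 higher and 1 lower of 8 at 30 µg/kg. At that dose 23.2% of all genes were higher and 18.9% lower. The median log2 fold change of the list was 2.71. Already at 10 µg/kg 3 were higher and 1 lower, where 13.6% of all genes were higher and 8.13% lower. St14, which encodes the membrane protease matriptase, rose by 5.06 log2 units (SE 0.39), from 0.573 to 1.56 CPM in vehicle livers to 14.3 to 59.8 CPM. Afp, the fetal serum protein alpha-fetoprotein, rose by 4.82 (SE 0.45), and Itgb4, an integrin of basement membrane contacts, by 1.70. Without replicate 2 of the 30 µg/kg group the value of Itgb4 was 1.17 (adjusted p = 0.0512 by edgeR) and no longer passed. The hyaluronan receptor Cd44, which leukocytes also carry, was called from 3 µg/kg (0.92) and rose by 2.87 at 30 µg/kg. Dlk1, a fetal liver membrane protein, held 0 to 3 counts per vehicle library and measured 2.50 CPM on average at 10 and 4.65 CPM at 30 µg/kg, at least 24.3-fold higher at 30 µg/kg against the floor. Lgr5, a receptor of Wnt-activated cells, fell by 0.63 log2 units, a call that was absent when libraries were scaled to total counts alone and when vehicle replicate 4 (-0.52) or replicate 2 (-0.58), 3 (-0.54) or 5 (-0.52) of the 30 µg/kg group was left out.

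**Figure D4:**
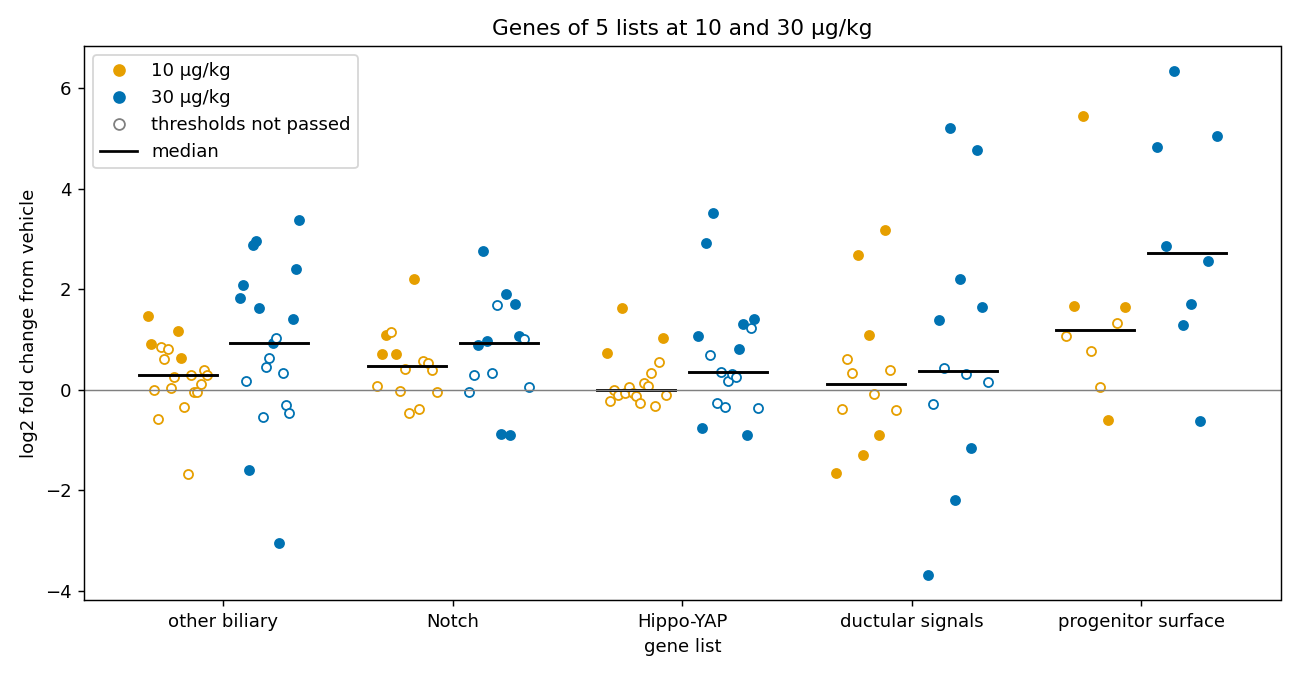
Log2 fold change from vehicle of each tested gene of 5 lists at 10 µg/kg (orange) and 30 µg/kg (blue), with open points where a threshold was not passed and a line at the median of the list. Median values at 30 µg/kg are 0.92 for other biliary genes, 0.92 for Notch, 0.36 for Hippo and YAP, 0.37 for ductular signals and 2.71 for progenitor genes.

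Without replicate 2 of the 30 µg/kg group, the counts of higher and lower genes were 9 and 2 for other biliary genes, 6 and 2 for Notch, 6 and 2 for Hippo and YAP, 5 and 3 for signals and 6 and 0 for progenitor genes. The share of all genes called in that fit is not given here, so these counts cannot be read as a result about the lists. The lists were chosen with earlier results of these data known. The libraries keep no strand, and Krt7 and Prom1 overlap genes on the opposite strand (Gm671 and Gm16401). So do Tspan8, Notch1, Ccn2, Tgfb2, Egfr, St14 and Afp among others, and Prom1 also overlaps Gm42716 on its own strand. A read that matched both genes of a pair was set aside as ambiguous and counted for neither. The strand of a counted read is not known, so any counted reads of a partner cannot be told apart. Gm671, Gm16401 and Gm42716 themselves held 4, 55 and 12 counts summed over the 30 µg/kg libraries.

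Markers of other cells moved with dose in the same livers. Their calls stand beside 23.2% of all genes higher and 18.9% lower at 30 µg/kg, and 13.6% higher at 10 µg/kg. Summed over 8 hepatocyte markers, CPM ranged from 103974 to 127077 in vehicle and from 30503 to 63378 at 30 µg/kg, with 6 lower, and Alb fell by 1.27 log2 units. The 5 macrophage markers, all 5 higher, summed to 128 to 180 CPM in vehicle and 426 to 987 CPM at 30 µg/kg, led by Clec4f in vehicle and Cd5l at 30 µg/kg. The 6 stellate markers, 5 higher, summed to 68.9 to 134 and 296 to 794 CPM, led by Reln in both groups. Proliferation markers, 5 of 5 higher at 10 and at 30 µg/kg, summed to 4.08 to 5.66 CPM in vehicle, 24.9 to 50.6 CPM at 10 and 48.7 to 73.4 CPM at 30 µg/kg. Endothelial markers, 3 of 4 higher and led by Stab2, summed to 103 to 142 and 184 to 270 CPM, and B cell markers, 4 of 4 higher and led by Cd79a, to 2.58 to 3.68 and 4.08 to 10.1 CPM.

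Neutrophil markers summed to 0.0700 to 1.06 CPM in vehicle and 7.27 to 27.5 CPM at 30 µg/kg, where 23.2% of all genes were higher and 18.9% lower. The 2 tested of 6, S100a8 and S100a9, were higher, while Ly6g, which defines the cells, had 0 counts in vehicle and at most 7 per library at 30 µg/kg. Mesothelial markers, with 2 of 5 higher (Msln and Lrrn4), summed to 1.79 to 10.1 and 5.18 to 17.2 CPM, with the upper end of both ranges in replicate 2. At 30 µg/kg replicate 2 also had the highest stellate and neutrophil sums and the lowest endothelial (184 CPM), B cell (4.08 CPM) and erythroid (80.7 CPM) sums. Of 6 pancreas acinar markers, 2 were tested and neither passed, and Pnlip had 0 counts in vehicle and at most 6 at 30 µg/kg. Of 4 erythroid markers, 1 of 3 tested was lower (Alas2), and Hbb-bs had a log2 fold change of 0.07. The part of these cells in the changes of the 6 genes was not tested.

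The genes whose mean log2 CPM over the 8 groups followed each of the 6 most closely were found among 10663 genes, by the root mean square difference of the centred profiles. Epcam lay closest to Tspan17 (0.12), Cd24a (0.15) and Syt12 (0.17), and Cd24a to Epcam (0.15), Serinc2 (0.22) and Tspan17 (0.23). Krt7 lay closest to Bicc1 (0.14), an RNA-binding protein of the biliary list, then to Crip1 (0.20) and Spsb1 (0.21). Krt19 had no neighbour as near, with Setd4 (0.30), Plp2 (0.31) and Tfrc (0.32). Sox9 lay closest to Arl2 (0.14), Gtf2ird2 (0.14) and Rab3a (0.14). The nearest to Prom1 were Clec4d (0.20), Ivl (0.27) and Mep1a (0.27), whose mean log2 CPM rose from -2.93, -3.15 and -3.15 in vehicle to 2.61, 1.77 and 1.77 at 30 µg/kg, with the vehicle values set mainly by the prior count of 2.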

How the data were processed

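The authors trimmed reads with Trimmomatic 0.39 and aligned and counted them with STAR 2.7.3a, per the labels, and deposited raw counts per gene for each of the 40 libraries (NEB Ultra2 RNA kit). The labels name the builds GRCm39 and mm10 without saying what each was used for. Names and exon lengths came from GENCODE M21, which named 52083 of the 55359 identifiers. The authors also deposited a log2 table of 23120 genes, used here only in an alternative. DESeq2's variance-stabilizing transformation of the counts gave it to within 5.03e-10. First-strand counts made up 50.0% to 50.3%, so the unstranded column was used. Reads not assigned to a single gene (19.2% to 28.7%), ambiguous reads among them, were left out of library sizes.

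Tests were run in R (4.3.3) and edgeR (4.0.16): filterByExpr (minimum count 10, minimum total 15), TMM, and a quasi-likelihood fit of 1 mean per dose over all 40 libraries, with Benjamini-Hochberg adjustment over all 15373 genes. CPM used TMM sizes, log2 CPM a prior count of 2, and the floor was 3 counts per library. Floors cover counting error only. SD is between mice and SE from the fit. Alternatives were DESeq2 1.42.0, limma 3.58.1, other scalings, filters and covariates, each numbering run alone (19 and 21 libraries), the strand-specific column and leaving out mice. Leaving out 2 mice at 30 µg/kg together was added after the data were seen. Named genes were the 6 members, up to 5 genes per list with the largest called changes at 30 µg/kg and at least 50 mean counts, list genes called at 3 µg/kg or below, leading markers, and 3 nearest genes per member with at least 100 mean counts. Genes named beyond these were chosen after their values were seen. Values of some list genes are not reported here. Members and lists were chosen with earlier results of these data known. On data simulated with known changes in the 30 µg/kg comparison, the fit called 65 of 97 genes changed 2-fold and 83 of 92 changed 4-fold. It also called 4 unchanged genes. The simulated data held no broad shift over all genes and no mouse standing apart, so this recovery need not hold in the real data.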

Additional observations from a re-analysis of the deposited data

Results flagged for a closer look

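A mouse was flagged where its gap to the nearest of the other 4 mice exceeded 0.71 of the group's range. Chance gives this in about 1 in 20 groups of normally distributed values. Whether that rate holds for CPM of genes with few counts was not tested. Of 48 groups (6 genes in 8 dose groups) 11 were flagged, all for the highest mouse and all for the mouse numbered replicate 2, and they come from 4 mice, so they are not independent. At 30 µg/kg this mouse had 22.2 CPM of Krt7 (next highest 3.78), 38.9 CPM of Krt19 (6.63), 30.9 CPM of Epcam (9.65) and 32.7 CPM of Cd24a (11.8). At 10 µg/kg another mouse had 3.97 CPM of Krt7 (1.44) and 4.01 CPM of Epcam (1.77). At 0.03 µg/kg a mouse had 10.5 CPM of Krt19 (2.49), 4.12 CPM of Epcam (1.41) and 8.56 CPM of Cd24a (1.55). In vehicle a mouse had 4.91 CPM of Krt19 (2.44) and 5.10 CPM of Cd24a (1.94). The vehicle mouse also had the group's highest summed stellate, mesothelial, endothelial, neutrophil and proliferation markers, at 134, 10.1, 142, 1.06 and 5.66 CPM. At 0.03 µg/kg the flagged mouse had its group's highest pancreas acinar, B cell and proliferation sums, at 5.26, 5.01 and 9.70 CPM. At 10 µg/kg it had its group's highest neutrophil sum (6.87 CPM) and lowest mesothelial and pancreas acinar sums (4.15 and 0 CPM). The mouse at 30 µg/kg had the highest summed stellate, mesothelial and neutrophil markers of its group, at 794, 17.2 and 27.5 CPM, and the lowest endothelial, B cell, erythroid and pancreas acinar sums, at 184, 4.08, 80.7 and 0.957 CPM. The cause was not tested.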

How the results depend on the processing

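No paired analysis was possible because the labels give no replicate numbers, and those used here follow accession order. Of 1455 values of single genes under the alternatives, 1385 kept their direction and their side of the thresholds, 28 changed side, 1 reversed and the others changed sign without passing in either fit (37 at 3 µg/kg or below, 4 elsewhere). No gene of the 6 was called at 3 µg/kg or below under any alternative, and Prom1 was called at 10 and 30 µg/kg under all of them. The Krt19 call at 30 µg/kg was lost without replicate 2 (0.77) and without replicates 1 and 2 of that group (1.05, adjusted p = 0.0618 by edgeR). Its slope ranged from -0.0013 to 0.26 as mice were left out one at a time, and did not pass under DESeq2 (0.19), limma on the deposited log2 values (0.06), run 1 alone (0.23) or without both mice (0.01). The Krt7 difference between 30 and 10 µg/kg ranged from 0.52 to 2.38 over the same omissions. That of Sox9 passed without replicate 1 at 30 µg/kg (-0.99), without replicate 1 at 10 µg/kg (-0.80), with the strand-specific column (-0.77) and in run 2 (-1.14). The Sox9 slope passed with limma (-0.07) and without any of 7 mice, ranging from -0.09 to -0.05.

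Run 1 alone gave 1 gene for 30 against 10 µg/kg and 3 with a slope. At 10 µg/kg it called 2 other biliary, 2 Notch, 1 Hippo and YAP and 2 progenitor genes, and at 30 µg/kg 5 progenitor genes. Run 2 alone called 2 other biliary genes and 1 Notch gene at 10 µg/kg. Each run held only 2 or 3 mice per group for vehicle, 10 and 30 µg/kg. The shares of all genes called in these fits are not given here, so the counts cannot be read as a result about the lists. A filter at a mean of 50 counts, which tests fewer genes, left 7 other biliary and 4 progenitor genes at 30 µg/kg. Notch calls at 10 µg/kg were 7 with total counts alone, 7 with no fold threshold, 2 with limma, and 2 to 6 as mice were left out. Scaled to total counts alone, 3736 of all 15373 genes were called at 10 µg/kg. Shares of all genes under the filter and in the other fits named for Notch are not given. Those counts cannot be read as a result about the lists. Unequal pairs numbered 5 to 10 as mice were left out, with 5 when vehicle replicate 1, 3, 4 or 5 was omitted. Other causes were not tested. With 7 to 32 counts per vehicle library for Krt7 and Prom1, changes at the lower doses would have to be large to be detected.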
